A study of Mus musculus with 2 samples.

Results

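The genes described are 10 carriers that move amino acids across the plasma membrane, Slc7a11, Slc3a2, Slc7a5, Slc1a4, Slc1a5, Slc38a2, Slc38a3, Slc38a4, Slc7a2 and Slc43a1. They were taken by name from a count table of 20823 Ensembl genes, in which each of the 10 symbols matched 1 identifier, and all 10 passed the minimum of 20 counts in both libraries together. The APAP library came from liver of C57BL6J mice aged 8 weeks, 24 h after 300 mg/kg acetaminophen (APAP) given intraperitoneally in saline, and the control library from liver of the same strain and age labelled as given no agent. The sources used here do not state sex, how many animals stand behind a library, or whether controls had a vehicle. In both groups livers were digested with collagenase, cells bearing CD31 or CD45 were removed by flow sorting, and 20000 hepatocytes with high Cxcr2 on their surface were taken for poly(A) RNA sequencing.

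Hepatocytes take up amino acids from portal blood for protein synthesis, urea and glucose production and glutathione, and they also release some, glutamine among them. Carriers of the SLC38 family import small neutral amino acids with sodium, those of the SLC1 family named here exchange neutral amino acids such as alanine, serine, cysteine and glutamine, and several SLC7 proteins reach the membrane only as light chains bound to a heavy chain, Slc3a2 (CD98) or Slc3a1 (rBAT). Cystine brought in by Slc7a11 is reduced to cysteine, the limiting building block of glutathione, the thiol that the reactive product of APAP consumes.

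The table held 51009898 counts in the APAP library and 52419864 in the control library. Hepatocyte transcripts were abundant in both, with the 8 hepatocyte markers summing to 89306 and 57927 CPM in the APAP and control libraries (CPM, the count over the library total scaled by the trimmed mean of M-values, TMM). Most of both sums came from Alb, at 45856 and 29194 CPM, and Trf, at 23103 and 9669 CPM. The median log2 fold of the 8 markers, APAP over control, was -0.06. Cxcr2 itself, the surface protein of the sort, had 2 counts in the APAP library and 0 in the control library. Each group had a single library, so differences have no replicate check and carry no p-value. The 95% intervals given here are exact Poisson intervals that cover counting error in these 2 libraries only, and reads without molecular identifiers are not independent molecules. In a sorted population, fewer cells of a kind and less RNA per cell cannot be told apart.

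The comparison asks which amino acid carriers differed in transcript level between hepatocytes after APAP and hepatocytes without it. The cystine carrier Slc7a11 and the alanine, serine and cysteine exchanger Slc1a4, both at low levels, had over 2-fold their control level in APAP cells, while the 4 abundant carriers had folds of 0.588 to 0.696. A gene was called at a fold of at least 2 with an interval that left out 1. By that rule 2 of 10 carriers, Slc7a11 and Slc1a4, were higher in the APAP library, beside 10.7% of all 14096 genes with at least 20 counts, and 0 of 10 were lower, beside 7.09%. The direction alone was split evenly. Intervals lay wholly above 1 for 4 of 10 carriers, against 34.1% of all genes, and wholly below 1 for 5 of 10, against 33.0%. With total counts as the scaling, 3 of 10 were higher and 0 lower, beside 17.3% and 4.44% of all genes, and intervals lay above 1 for 5 and below 1 for 4, beside 60.2% and 14.7%. The median log2 fold of the 10 was -0.19, with Slc7a11 at its bound, against 0.02 over all genes. Scaling by total counts adds 0.35 to every log2 fold, which gave a median of 0.15 for the carriers against 0.37 for all genes.

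**Figure D1:**
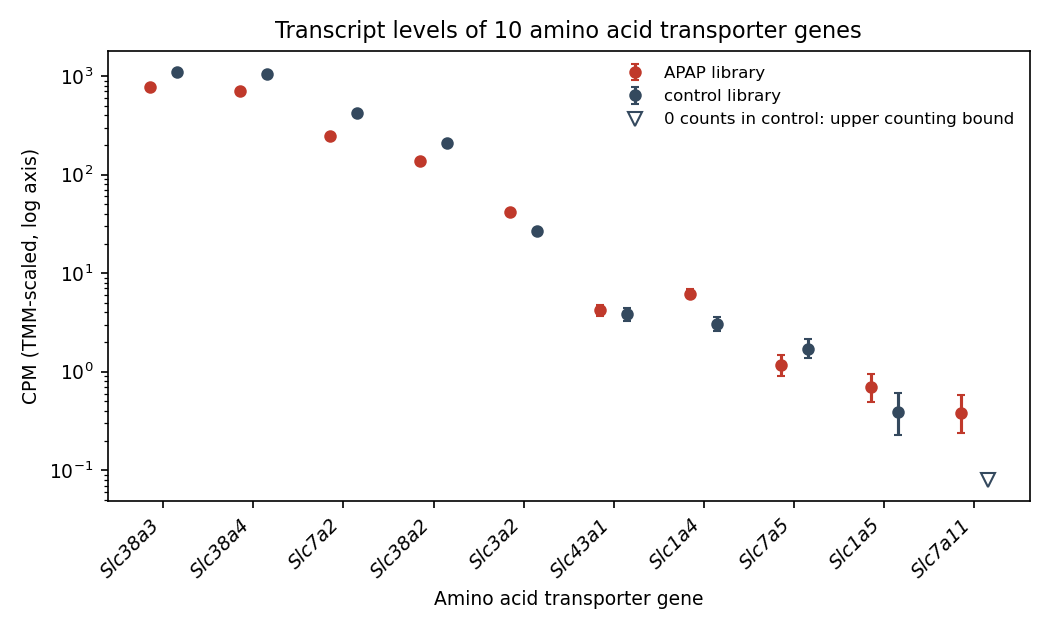
Transcript level in CPM (log axis) of each of the 10 carrier genes, with the APAP library to the left of the control library and 95% counting intervals as bars. The genes are ordered by control level from Slc38a3 at 1111 CPM to Slc7a11 at 0 counts, whose open triangle marks the upper counting bound of 0.0793 CPM.

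Slc7a11 (ENSMUSG00000027737), the cystine and glutamate exchanger xCT, had 22 counts in the APAP library and 0 in the control library. That is 0.383 CPM (0.240 to 0.579) in APAP cells, and at most 0.0793 CPM in control cells. With the 22 counts taken as they stand and the control library at a floor of 3 counts, Slc7a11 was at least 5.93-fold higher. The exact interval of the ratio, which also allows for counting error in the 22 counts, reached down to 4.43, and to 2.03 with counts halved. Of all genes with at least 20 counts, 0.610% were likewise counted in the APAP library alone. It was the least counted of the 10 carriers in both libraries.

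Slc3a2 (ENSMUSG00000010095), the heavy chain that carries xCT and other light chains to the membrane, had 2412 counts in the APAP library and 1251 in the control library. Its level was 42.0 CPM (40.3 to 43.7) in APAP cells, against 26.9 CPM (25.4 to 28.4) in control cells, a fold of 1.56 (1.46 to 1.67) that did not reach 2 with any of 5 scalings. Slc7a5 (ENSMUSG00000040010), the light chain of the LAT1 exchanger for large neutral amino acids, had 67 and 80 counts in the APAP and control libraries, which are 1.17 and 1.72 CPM. Its fold of 0.677 (0.482 to 0.949) became 0.861 (0.613 to 1.21) with total counts, an interval that holds 1. The folds of heavy chain and LAT1 light chain stood on opposite sides of 1, but at 67 and 80 counts the side of Slc7a5 is not settled.

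Slc3a2 was set beside all its listed light chains, Slc7a5, Slc7a6, Slc7a7, Slc7a8 and Slc7a11, per kilobase of exon. Slc3a2 stood at 11.9 and its light chains together at 1.22 CPM per kilobase in the APAP library, and at 7.62 and 0.581 CPM per kilobase in the control library. The heavy chain therefore outnumbered its light chains 9.73 times in APAP cells and 13.1 times in control cells. Those light chains rested on 260 and 98 counts, most of them of Slc7a7 in the APAP library and of Slc7a5 in the control library. Slc7a7, the y+LAT1 light chain for cationic and neutral amino acids, had 161 counts in APAP cells and 18 in control cells and was 7.24-fold higher (4.43 to 12.5).

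Slc1a4 (ENSMUSG00000020142), the alanine, serine and cysteine exchanger ASCT1, had 357 counts in the APAP library and 142 in the control library. It reached 6.21 CPM (5.58 to 6.89) in APAP cells, against 3.05 CPM (2.57 to 3.60) in control cells, and was 2.03-fold higher (1.67 to 2.49). Its fold lay between 2.01 and 2.58 over the 5 scalings, so the call rests on a value close to the threshold with 3 of them. Slc1a5 (ENSMUSG00000001918), the glutamine exchanger ASCT2 of the same family, had 40 and 18 counts, which are 0.696 CPM (0.497 to 0.947) in the APAP library and 0.387 CPM (0.229 to 0.612) in the control library. Its fold was 1.80 (1.01 to 3.33) with TMM, and 2.28 (1.28 to 4.23) with total counts. Both exchangers of the SLC1 family had the higher value in the APAP library, and together they had 397 and 160 counts in the APAP and control libraries, a fold of 2.01 (1.67 to 2.43).

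Genes of amino acid carriers are known targets of ATF4, a transcription factor of amino acid shortage and endoplasmic reticulum stress that binds the C/EBP-ATF composite element, and Slc7a11 is also a target of NRF2 through the antioxidant response element. The promoter windows of Slc7a11 and Slc1a4, the called genes, are shown beside those of Slc3a2 and Slc38a2, which were not called. Each runs from 250 bases before to 50 bases after the RefSeq start on build GRCm38.p6, all on the minus strand, 5′ to 3′, while the counts were made on mm39. Capitals mark matches on either strand to TGATGNAA, the core of the composite element, or to TGACNNNGC, the core of the antioxidant response element; no matches overlapped.
Slc7a11, chr3:50443564-50443863: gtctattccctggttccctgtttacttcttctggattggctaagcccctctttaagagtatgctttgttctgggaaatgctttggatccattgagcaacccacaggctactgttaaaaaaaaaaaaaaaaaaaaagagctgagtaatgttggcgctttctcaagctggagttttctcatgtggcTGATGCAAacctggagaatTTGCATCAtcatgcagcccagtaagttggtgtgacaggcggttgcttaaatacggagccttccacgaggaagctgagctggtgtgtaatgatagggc
Slc1a4, chr11:20332664-20332963: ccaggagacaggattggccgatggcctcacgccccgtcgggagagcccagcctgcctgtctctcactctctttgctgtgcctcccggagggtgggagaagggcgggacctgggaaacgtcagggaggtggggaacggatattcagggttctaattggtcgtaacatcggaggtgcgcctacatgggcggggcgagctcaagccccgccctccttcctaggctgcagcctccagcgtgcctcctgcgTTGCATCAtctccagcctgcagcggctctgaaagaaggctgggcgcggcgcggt
Slc3a2, chr19:8713848-8714147: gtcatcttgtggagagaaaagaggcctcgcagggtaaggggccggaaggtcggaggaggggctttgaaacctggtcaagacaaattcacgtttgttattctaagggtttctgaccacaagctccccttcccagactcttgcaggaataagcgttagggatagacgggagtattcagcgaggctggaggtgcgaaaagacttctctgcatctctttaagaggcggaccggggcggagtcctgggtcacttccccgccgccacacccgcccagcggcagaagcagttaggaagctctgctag
Slc38a2, chr15:96699679-96699978: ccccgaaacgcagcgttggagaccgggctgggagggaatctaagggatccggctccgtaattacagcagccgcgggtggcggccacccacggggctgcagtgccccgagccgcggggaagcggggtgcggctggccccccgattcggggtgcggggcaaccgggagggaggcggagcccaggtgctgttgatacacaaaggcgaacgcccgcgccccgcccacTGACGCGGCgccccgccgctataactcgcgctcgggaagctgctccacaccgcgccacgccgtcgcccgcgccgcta

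The table of promoters held 8 windows of 6 carriers, those shown and also Slc43a1 and Slc38a4, of which Slc38a4 has 3 starts. Slc7a5, Slc1a5, Slc7a2 and Slc38a3 had no window. The composite core was found in 2 of these 8 windows, against 3.97% of all 32851 windows. Slc7a11 held it 2 times, in opposite directions, beginning 66 and 47 bases before the start. Slc1a4 held it 1 time, beginning 4 bases before the start and running across it. The antioxidant core was found in 2 of 8 windows, against 12.4% of all, at 27 bases before the start of Slc38a2 and 16 bases before that of Slc43a1. A match of letters is not a binding site, and the data used here hold no measure of binding at these windows. Bases outside the windows were not searched, and whether either core goes with the calls was not tested.

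The abundant members were Slc38a3, Slc38a4, Slc7a2 and Slc38a2, which took 97.1% of the 110078 carrier counts in the APAP library and 98.7% of the 131031 in the control library. Slc38a3 (ENSMUSG00000010064), the system N carrier SNAT3 that moves glutamine, histidine and asparagine in either direction, had 44455 and 51654 counts in the APAP and control libraries. Its level was 773 CPM (766 to 780) in APAP cells, against 1111 CPM (1101 to 1120) in control cells, a fold of 0.696 (0.687 to 0.705). Slc38a4 (ENSMUSG00000022464), the system A carrier SNAT4 of liver, had 40198 counts at 699 CPM in APAP cells and 48371 counts at 1040.1 CPM in control cells, a fold of 0.672 (0.663 to 0.681). Slc38a2 (ENSMUSG00000022462), the system A carrier SNAT2 that many cells raise when amino acids run short, had 7959 counts at 138 CPM in APAP cells and 9634 counts at 207 CPM in control cells, a fold of 0.668 (0.649 to 0.688). The 3 SLC38 genes had folds within a narrow range, although Slc38a2 had far fewer counts than the other two.

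Slc7a2 (ENSMUSG00000031596), the cationic carrier CAT2 that brings in arginine, lysine and ornithine, had 14326 counts in the APAP library and 19703 in the control library. It stood at 249 CPM (245 to 253) in APAP cells, against 424 CPM (418 to 430) in control cells, and its fold of 0.588 (0.576 to 0.601) was the lowest of the 10. Slc43a1 (ENSMUSG00000027075), the facilitative carrier LAT3 of branched-chain amino acids, had 242 counts at 4.21 CPM (3.70 to 4.77) in APAP cells and 178 counts at 3.83 CPM (3.29 to 4.43) in control cells. Its fold of 1.10 (0.903 to 1.34) showed no difference detectable at this depth with TMM, whereas total counts gave 1.40 (1.15 to 1.71). All 4 abundant carriers stayed below 1 under each of the 5 scalings, between 0.581 and 0.884, and none reached a fold of 0.5. The 661 genes at least as abundant as the least abundant of these 4 had a median log2 fold of -0.22 and a lower quartile of -0.76, and 63.5% of them lay below 0, against 48.4% of all genes. The 4 carriers, at log2 folds of -0.52 to -0.77, lay below that median, and Slc7a2 lay at the lower quartile.

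**Figure D2:**
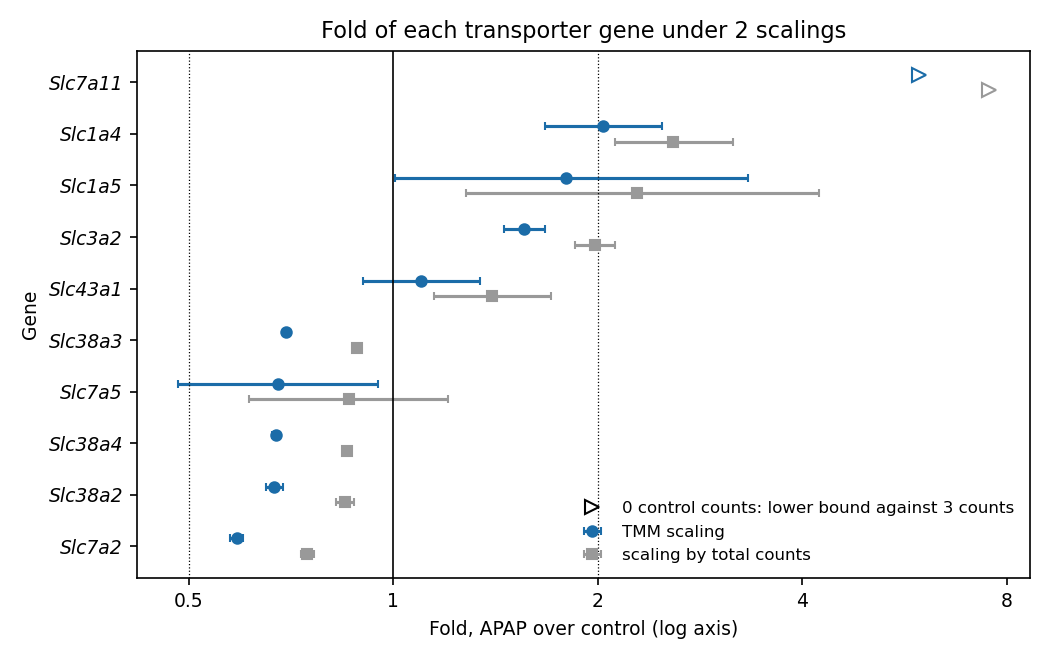
Fold of each carrier gene, APAP over control, on a log axis with 95% counting intervals, under TMM and under total counts, with dotted lines at 0.5 and 2. The order from Slc7a2 at 0.588 to Slc7a11, drawn at 5.93 against the floor of 3 counts, is that of the TMM values, and total counts move every gene to the right by the same step.

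Because scaling moves all genes alike, the share of each carrier within the sum of the 10 does not depend on it. Slc38a3 took 40.4% of carrier counts in the APAP library (40.1% to 40.7%, exact binomial interval) and 39.4% in the control library (39.2% to 39.7%). Slc38a4 took 36.5% (36.2% to 36.8%) and 36.9% (36.7% to 37.2%) in the APAP and control libraries, and Slc38a2 took 7.23% (7.08% to 7.38%) and 7.35% (7.21% to 7.50%), so these shares moved by little. The share of Slc7a2 was 13.0% (12.8% to 13.2%) in APAP cells, against 15.0% (14.8% to 15.2%) in control cells. The share of Slc3a2 was 2.19% (2.11% to 2.28%) in APAP cells, against 0.955% (0.903% to 1.01%) in control cells, and that of Slc1a4 was 0.324% (0.292% to 0.360%) against 0.108% (0.0913% to 0.128%). Relative to the sum of the 10, Slc1a4 was 2.99 times and Slc3a2 2.30 times its control value. All 10 together made up 0.216% of the APAP library and 0.250% of the control library.

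Levels of different genes can be compared only per length, here in CPM per kilobase of exon in GENCODE M21. Slc38a4 and Slc38a3 led in both libraries, at 164 and 147 CPM per kilobase in APAP cells and 244 and 210 CPM per kilobase in control cells. Their order turned round when the longest coding transcript was used as length, so it is not settled. Slc7a2 followed at 27.3 and 46.4, then Slc38a2 at 15.7 and 23.4 and Slc3a2 at 11.9 and 7.62 CPM per kilobase in APAP and control cells. Slc1a4 stood at 1.58 (1.42 to 1.75) in APAP cells and 0.778 (0.655 to 0.917) in control cells, and Slc43a1 at 0.736 (0.647 to 0.835) and 0.670 (0.575 to 0.775) CPM per kilobase. By this length these neighbours overlapped in their intervals in control cells, while in APAP cells Slc1a4 lay above Slc43a1. Per kilobase of the longest coding transcript, Slc1a4 stood at 1.58 in APAP cells and 0.778 in control cells, against 1.36 and 1.24 for Slc43a1. Their order in control cells thus turned round, so how these genes compare depends on the length used. Slc7a5, Slc1a5 and Slc7a11 closed the order in both libraries, at 0.314, 0.167 and 0.0275 CPM per kilobase in APAP cells.

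**Figure D3:**
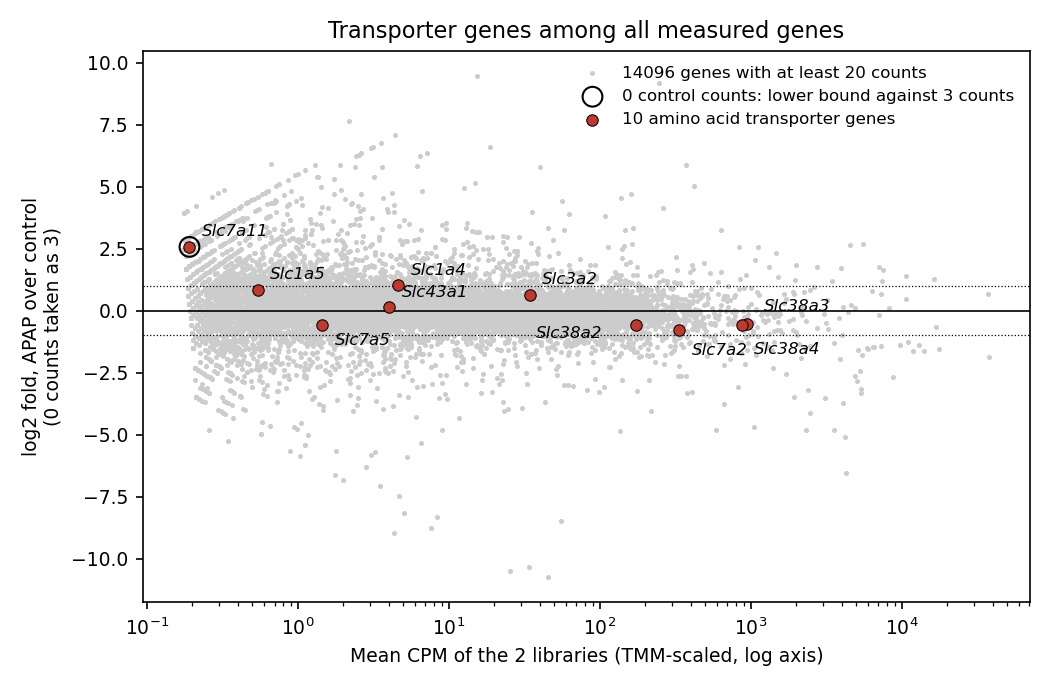
Mean CPM of both libraries (log axis) against log2 fold, APAP over control, for 14096 genes (grey) and the 10 carriers (red), with 0 counts taken as 3. The carriers other than Slc7a11 and Slc1a4 lie inside the dotted lines at a log2 fold of -1 and 1, amid the other genes of their level.

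Of 38 further genes for plasma membrane carriers, 22 were listed and 12 had at least 20 counts, of which 3 were higher, 2 lower and 7 neither, with a median log2 fold of -0.30. Over all genes 10.7% were higher and 7.09% lower, shares that stand beside this count and those of the lists that follow. Slc3a1, the heavy chain rBAT of cystine and cationic amino acid transport, had 4959 counts in APAP cells and 550 in control cells and was 7.29-fold higher (6.68 to 7.98), reaching 86.3 CPM. Its light chains Slc7a9 and Slc7a13 were not listed. Slc7a4 was 2.98-fold higher (2.0 to 4.56) at 2.05 CPM. Slc16a10, the aromatic amino acid carrier TAT1, was 3.25-fold lower (3.10 to 3.41), at 40.9 CPM in APAP cells and 133 CPM in control cells. Slc1a2, a glutamate carrier of hepatocytes at the central vein, had 0 and 3165 counts in the APAP and control libraries. With the 3165 counts taken as they stand and the APAP library at a floor of 3 counts, it was at least 1304-fold lower. The exact interval, which does not use that floor, reached down to 1060-fold. The most abundant of these genes, Slc6a13 and Slc6a6, which carry taurine among other substrates, had folds of 0.991 (0.962 to 1.02) and 0.918 (0.885 to 0.952). Slc7a1, the cationic carrier CAT1 of most other tissues, had 2 counts in the APAP library and 0 in the control library.

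Lysosomal amino acid carriers met the rule in neither direction, with 0 higher and 0 lower of 7 measured and a median log2 fold of 0.16. Slc36a1 and Slc38a7, the most abundant ones, had folds of 1.38 (1.30 to 1.46) and 1.11 (1.02 to 1.21).

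Of 18 measured genes of cysteine and glutathione metabolism 0 were higher, 4 were lower and 14 were neither, with a median log2 fold of -0.42, or -0.07 with total counts, under which 2 were higher and 1 was lower. The median log2 fold was 0.02 over all genes and -0.22 over the 661 abundant ones. Csad, which leads cysteine sulfinate to taurine, was 2.59-fold lower (2.54 to 2.64). Gnmt and Ahcy, which consume S-adenosylmethionine and hydrolyse S-adenosylhomocysteine on the way from methionine to cysteine, were 2.43-fold (2.40 to 2.47) and 2.10-fold lower (2.08 to 2.13), but with total counts their ratios of 0.523 and 0.604 no longer met the rule. The other lower gene, Gclc of glutathione synthesis, was 2.02-fold lower (1.97 to 2.06), but its ratio of 0.630 with total counts did not meet the rule. The most abundant genes of the list, Mat1a and Bhmt, had folds of 0.773 (0.765 to 0.781) and 0.582 (0.577 to 0.588).

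Of the 21 measured genes of the amino acid stress response, which ATF4 and its partners direct, 8 were higher, 0 were lower and 13 were neither, with a median log2 fold of 0.67; total counts gave 11 higher and 0 lower. Those 8 stand beside the 10.7% of all genes that were higher. Psat1, a serine synthesis enzyme, had 407 and 6 counts in the APAP and control libraries, a ratio of 54.9 (25 to 150). Nupr1, a stress-induced chromatin protein, had the same counts as Slc7a11, 22 and 0. Aldh18a1, the first enzyme of proline synthesis, was 7.60-fold higher (3.04 to 24.5) from 47 and 5 counts. Atf5, a transcription factor of the same response, rose 2.14-fold (2.09 to 2.19) to 433 CPM in APAP cells, against 202 CPM in control cells, and Cebpb had a fold of 1.43 (1.39 to 1.47). Among the 13 that were neither, Atf4 itself had a fold of 1.24 (1.18 to 1.30). Asns had 242 and 272 counts in the APAP and control libraries, a fold of 0.720 (0.603 to 0.859), so the list did not rise as a whole.

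Genes of the NRF2 pathway showed no common direction, with 2 higher, 1 lower and 9 neither of 12 measured and a median log2 fold of -0.07, or 0.27 with total counts. Abcc4, an export pump, was 18.1-fold higher (8.60 to 45.9) from 157 and 7 counts in APAP and control cells. G6pdx, the entry enzyme of the pentose phosphate pathway, was 2.06-fold higher (1.56 to 2.73). Me1, the cytosolic malic enzyme, was 3.69-fold lower (3.57 to 3.82), and Tkt had a fold of 0.752 (0.728 to 0.776).

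**Figure D4:**
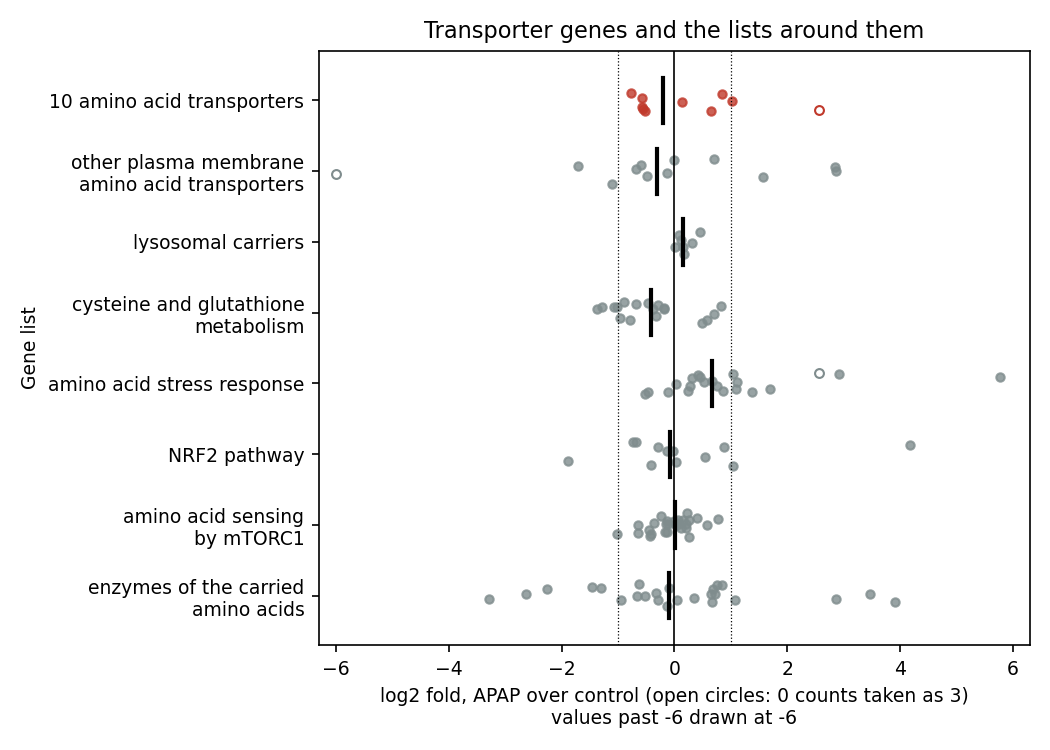
Log2 fold, APAP over control, of the measured genes of each list, with black bars for the medians, open circles where 1 library had 0 counts (taken as 3), and 1 point past -6, Slc1a2, drawn at -6. The 10 carriers spread around their median of -0.19, while the amino acid stress response has its median at 0.67.

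Enzymes that use the carried amino acids moved in both directions. Of 25 measured, 4 were higher, 5 were lower and 16 were neither, with a median log2 fold of -0.09, or 0.25 with total counts. Sds and Sdsl, which break down serine, a substrate of Slc1a4, were 15.1-fold (13.6 to 16.8) and 11.0-fold higher (8.66 to 14.3). Glul, the glutamine synthetase, was 9.78-fold lower (9.18 to 10.4), Oat, the ornithine aminotransferase, 6.22-fold lower (6.04 to 6.41), and Prodh, the proline dehydrogenase, 4.81-fold lower (4.59 to 5.04). The most abundant enzymes, Tat for tyrosine and Glud1 for glutamate, had folds of 1.61 (1.60 to 1.63) and 1.27 (1.25 to 1.28), and Tat reached 2.05 with total counts, under which 9 enzymes were higher and 4 lower.

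Of 13 macrophage markers 7 had a count in the APAP library and 2 in the control library, summing to 7.18 and 0.151 CPM. Cd68 alone gave 4.99 and 0.0645 CPM of these sums, and Cd14 gave 1.36 and 0.0860 CPM. Csf1r had 24 counts in the APAP library and 0 in the control library. Lyz2, C1qa, C1qc and Marco had 4, 4, 6 and 10 counts in the APAP library and 0 in the control library. Of the 3 macrophage markers with at least 20 counts, 3 were higher by the rule, beside 10.7% of all genes. Ptprc, Adgre1, Clec4f, Vsig4, Timd4 and C1qb were not listed. Of 10 stellate cell and fibroblast markers 8 had a count in APAP cells and 4 in control cells, summing to 10.8 and 1.10 CPM, of which Reln alone gave 9.39 and 0.753 CPM. The 10 endothelial markers were counted in both libraries and summed to 24.9 and 21.6 CPM in APAP and control cells. By the rule 4 of them were higher and 2 lower, and their log2 folds had a median of 0.87. Cdh5 was 6.50-fold higher (4.28 to 10.3) and Pecam1, which encodes the CD31 of the gate, 3.11-fold higher (1.98 to 5.04), while Stab2 was 2.09-fold (1.77 to 2.47) and Tie1 2.31-fold lower (1.75 to 3.09). Of 9 cholangiocyte markers 3 had a count in the APAP library and 2 in the control library, summing to 41.7 and 16.9 CPM, and Epcam, Krt7 and Krt19 were not listed. Neutrophil markers had 4 counts in all in the APAP library and 0 in the control library. The APAP levels of Slc7a11, Slc1a5, Slc7a7 and Slc1a4 were 0.383, 0.696, 2.80 and 6.21 CPM. These levels and the marker sums are not per length, so they cannot be set against each other. The part of cells other than hepatocytes in the values of Slc7a11, Slc1a4, Slc1a5 and Slc7a7 was not tested.

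The 10 pericentral markers were lower in the APAP library, summing to 1647 CPM against 11866 CPM in the control library, with 10 of 10 lower by the rule and 8 of 10 with total counts. The 8 periportal markers summed to 9518 CPM in APAP cells and 8560 CPM in control cells, with 1 higher and 0 lower, or 4 higher with total counts. Slc1a2, Glul, Oat and Sds, given above, are also on these marker lists. The part of the zonal makeup of each library in the folds of Slc38a2, Slc38a3, Slc38a4 and Slc7a2 was not tested.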

How the data were processed

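Libraries were made with a Tecan kit for poly(A) RNA, per the labels' protocols, and HISAT2 and Subread were used with build mm39, per the submitters' processing notes. The sources used here state no versions, annotation, strand setting or handling of read pairs. The authors deposited raw counts per Ensembl gene, and a second table with a normalized signal, which is each count divided by 1 constant per library (1.12 for APAP, 0.894 for control, found from the values). Of 20823 gene identifiers, 20679 had a symbol.

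Counts were scaled with TMM factors (edgeR 4.0.16, R 4.3.3) of 1.13 for APAP and 0.887 for control, so 1 count was worth 0.0174 and 0.0215 CPM. Folds are ratios of CPM, APAP over control, with exact conditional Poisson intervals; n-fold lower is the inverse. A gene was called at a fold of 2 or more, an interval without 1, and at least 20 counts in both libraries together. A library at 0 counts was taken at 3 counts for a bound. Log2 folds in medians have a prior of 0.5 counts. Low counts, from 1 to 20, were even in 70.6% of cases for APAP and 68.3% for control, and the intervals would be wider if each fragment had been counted 2 times; halved counts show by how much. No annotated gene shared exon bases with a carrier except Gm26584, opposite Slc7a2, which was not listed. The call rule was tested on simulated Poisson counts. These held neither variation between replicates nor fragments counted 2 times, so the test does not cover either.

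Alternatives were total counts, DESeq2 1.42.0 size factors, the authors' normalized signal, total counts without the 18 genes above 1% of a library, halved counts for the interval, other count minimums, other folds and another prior; 2 more, for the lists and for gene length, were chosen after seeing the data. Members, lists and rules were chosen with earlier results of these data known. Named genes are all 10 members and, of each list, up to 3 called genes farthest in each direction and the 2 most abundant, apart from a gene that is not reported here; others named from the lists, such as light chains and members of the carrier table not listed or near 0, were chosen after their values were seen. Python 3.11.15 with scipy 1.17.1 was used.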

Additional observations from a re-analysis of the deposited data

How the results depend on the processing

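Slc7a11 and Slc1a4 were called higher with DESeq2 size factors, with the authors' normalized signal, with halved counts for the interval and with no count minimum, as in the TMM result, and total counts with or without the genes above 1% of a library added Slc1a5, giving 3 of 10. Halving touched the interval only. The minimum of 20 stayed on the full counts, which Slc7a11 met with 22 and 0 in the APAP and control libraries and would not have met with counts halved. A count minimum of 100 left 1 carrier higher, since Slc7a11 has fewer counts, a fold of 3 left 1 higher, and a fold of 1.5 gave 4 higher (Slc7a11, Slc1a4, Slc3a2 and Slc1a5) and 1 lower (Slc7a2). No other setting gave a carrier that was lower. The median log2 fold of -0.19 moved to 0.15 with total counts and with the genes above 1% left out, settings that add a constant to every log2 fold, and was -0.21 with DESeq2 size factors and with the authors' signal and -0.20 with a prior of 5 counts. Each carrier kept its side of 1 under all 5 scalings. With DESeq2 size factors and with the authors' signal, intervals lay wholly above 1 for 3 carriers, against 4 with TMM, and wholly below 1 for 5. With counts halved, the lower limit of the Slc7a11 ratio was 2.03, against 4.43 with all counts, the interval of Slc1a5 was 0.782 to 4.48 and that of Slc7a5 0.415 to 1.10, so depth limits all 3. No paired analysis was possible because each group had 1 library, and for the same reason no replicate could be left out.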

Other observations

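Genes that sense amino acids for the growth kinase complex mTORC1 lay close together. Of 28 measured, 0 were higher, 1 was lower and 27 were neither, with a median log2 fold of 0.01. Fnip2, a partner of folliculin, was 2.02-fold lower (1.86 to 2.20) with TMM, but its ratio of 0.627 with total counts did not meet the rule. Mtor, the kinase itself, had a fold of 0.754 (0.718 to 0.791), and Sec13, a subunit of the GATOR complex and of vesicle coats, had a fold of 1.70 (1.61 to 1.80), or 2.16 with total counts, under which 1 gene was higher and 0 were lower.

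Among 7 genes known to affect the stability or place of carrier proteins, 1 was higher and 0 were lower. Cd44, a surface glycoprotein whose variant form is known to stabilise xCT in tumour cells, had 38 counts in the APAP library and 0 in the control library. With the 38 counts taken as they stand and the control library at the floor of 3 counts, it was at least 10.2-fold higher. The exact interval, which does not use that floor, reached down to 7.94. Bsg, a chaperone of membrane carriers, had a fold of 1.13 (1.10 to 1.16), and Nedd4, a ubiquitin ligase, had a fold of 0.873 (0.852 to 0.894).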
